A study of Mus musculus with 22 samples.

Results

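The subject is the difference between 2 refeeding responses of pancreatic β-cells: the change from fasted to refed in mice whose other islet endocrine cells had been ablated, minus the same change in control mice. It was computed for each gene from all 4 groups of the study, which took 22 of the 22 mice. Every mouse was a 3-month-old male of mixed background carrying the diphtheria toxin receptor genotype GluDTR+, SstDTR htz, PpyDTR htz, so controls carried the same alleles as ablated mice. Diphtheria toxin (DT) kills cells that display its receptor, here the glucagon, somatostatin and pancreatic polypeptide cells. β-cells were sorted by flow cytometry 1 month after ablation, either at the end of an 8 h fast or after the fast and 2 h of access to food. The groups held 5 fasted control, 5 refed control, 6 fasted DT and 6 refed DT mice, with 1 library each and no mouse number used more than once. What control mice were given in place of toxin, and which controlling sequences drive the receptors, is not given in the labels. Per the submitters, single-end reads of 100 bases came from amplified cDNA.

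In mouse β-cells glucose enters through Slc2a2, and its oxidation closes potassium channels, lets calcium in and makes dense-core granules release insulin. Glucagon from α-cells raises cyclic AMP in β-cells and strengthens this release, while somatostatin from δ-cells restrains it. A meal after a fast brings glucose, amino acids and gut hormones at once, which act on β-cells through metabolism, calcium, cyclic AMP and kinases that also change transcription. The comparison asks which genes answer that change in feeding differently when β-cells have lost their endocrine neighbours.

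Levels are CPM, which is counts scaled to a common library size, here with the TMM scaling factors. A refeeding response is the log2 ratio of refed to fasted mice, and the difference of responses is the DT value minus the control value. A positive difference therefore covers a larger rise, a smaller fall, or a rise in place of a fall. Tests were edgeR quasi-likelihood F tests over 14064 genes, with Benjamini-Hochberg adjustment and a threshold of 0.05. Total counts ran from 16584117 to 24988880 per library. The insulin genes Ins1 and Ins2, which mark β-cells, took between 40.3% and 69.4% of counts. Libraries of 2 refed DT mice stood apart from the rest. Mouse 13 had the highest insulin share of all 22 libraries, a TMM factor of 0.566 against 0.92 or more in the others, and a mean correlation of log2 CPM with its group of 0.881. Mouse 20 had the highest share of counts from the mitochondrial genome (1.59%; mouse 13 had 1.36%), the lowest acinar marker level and a mean correlation with its group of 0.911, against 0.927 or more in every library other than these 2. Both belong to the same group, so many results are also given without them. They were left out after their values were seen, which narrows the spread within refed DT mice. The p-values of that fit can therefore be too small. Acinar-cell markers, of which 14 of 14 were tested, summed to between 81.7 and 39645 CPM per mouse and varied as widely within groups as between them. In bulk libraries, fewer cells of a type and less RNA per cell cannot be told apart.

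**Figure D1:**
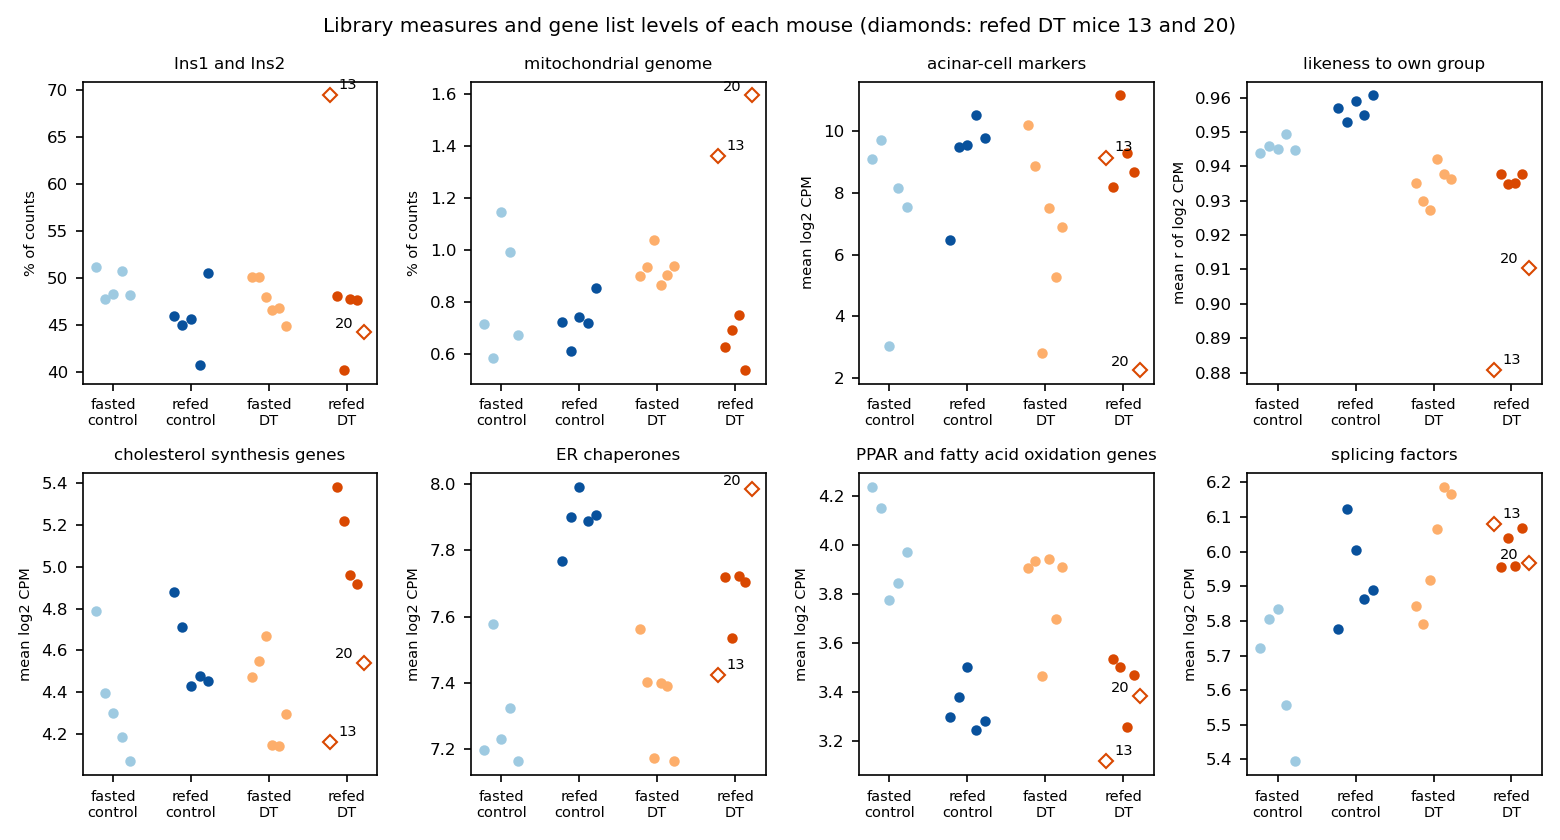
Each point is 1 mouse, by group; the upper row gives the share of counts (%) in Ins1 and Ins2 and in the mitochondrial genome, the mean log2 CPM of acinar-cell markers and the mean correlation with the other libraries of the group, and the lower row the mean log2 CPM of 4 gene lists. Diamonds mark refed DT mice 13 and 20, of which 13 lies at 69.4% insulin and 20 at 1.59% mitochondrial counts, and both have the lowest correlations.

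Refeeding responses of β-cells from ablated and control mice went together across genes (Pearson's r 0.61), and 1 gene differed between them past the threshold with all mice. A gene without a call is not shown to respond equally: the 95% interval of the difference lay within 1 log2 unit of 0 for 51.6% of tested genes. Selenbp1, a methanethiol oxidase named for its binding of selenium, fell on refeeding in controls and rose in DT mice. It was the 1 gene called with a higher response in DT mice (0.00711% of the genes tested), and 0 genes were called with a lower response. At an unadjusted p under 0.05 there were 1004 genes (7.14%), 463 with a higher response in DT mice (3.29%) and 541 with a lower one (3.85%). Other tools moved the count: DESeq2 called 13 genes higher and 7 lower, limma voom called 0 in either direction, and voom with sample quality weights called 1. Without mice 13 and 20, edgeR called 11 genes higher (0.0769%) and 3 lower (0.021%) of 14295, with 1784 at an unadjusted p under 0.05 (12.5%). Of these 1784 genes, 797 were also among the 1004 with all mice.

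Selenbp1 lies on chromosome 3 at 94933056 to 94944758 of GRCm38.p6, on the forward strand. Fasted control mice had 3.09, 3.20, 4.97, 4.40 and 8.04 CPM. Refed control mice had 0.93, 1.73, 1.16, 1.04 and 0.712 CPM. Fasted DT mice had 2.07, 2.08, 2.65, 1.71, 1.36 and 3.80 CPM. Refed DT mice had 4.20, 2.52, 8.31, 5.48, 4.46 and 4.33 CPM. Every refed control mouse lay below every fasted control mouse and below every refed DT mouse, while fasted and refed DT mice overlapped. Refed control and refed DT mice did not overlap in 139 of all tested genes (0.988%). The response was -2.08 ± 0.35 in controls (SE, edgeR, adjusted p = 0.000207) and 1.10 ± 0.31 in DT mice (adjusted p = 0.0118). Their difference was 3.18 ± 0.46 on the log2 scale, with a 95% interval from 2.21 to 4.14 (edgeR, adjusted p = 0.0109). The difference was 3.31 without mice 13 and 20 (edgeR, adjusted p = 0.0116) and 3.14 by limma voom, where it missed the threshold (adjusted p = 0.0644).

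Selenbp1 has a near copy on the same chromosome, Selenbp2, at 94693556 to 94704413. Their transcripts matched at 1687 of 1712 aligned bases (98.5%), and 21.3% of the 100-base windows of Selenbp1, the length of a read, also occur in Selenbp2. The promoters are shown because both genes had a positive difference of responses. From 250 bases before to 50 after each RefSeq start, 272 of 288 aligned bases were identical (94.4%), and capitals mark bases that differ or lack a partner inside the alignment.
Selenbp1, chr3:94932833-94933132, forward strand: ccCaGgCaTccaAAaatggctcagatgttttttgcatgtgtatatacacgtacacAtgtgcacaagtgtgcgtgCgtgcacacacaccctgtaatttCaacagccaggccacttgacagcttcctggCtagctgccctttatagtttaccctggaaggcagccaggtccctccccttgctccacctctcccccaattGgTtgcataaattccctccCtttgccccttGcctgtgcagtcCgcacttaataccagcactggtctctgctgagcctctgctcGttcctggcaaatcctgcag
Selenbp2, chr3:94693323-94693622, forward strand: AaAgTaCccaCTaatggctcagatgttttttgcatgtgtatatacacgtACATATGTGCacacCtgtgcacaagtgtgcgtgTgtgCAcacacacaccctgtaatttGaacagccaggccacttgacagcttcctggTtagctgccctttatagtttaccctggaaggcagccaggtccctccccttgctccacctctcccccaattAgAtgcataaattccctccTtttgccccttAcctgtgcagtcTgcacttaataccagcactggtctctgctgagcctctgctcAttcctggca
Selenbp2 was lower throughout, its median being 0.568 CPM in fasted control, 0.141 in refed control, 0.284 in fasted DT and 0.629 in refed DT mice. Its difference of responses was 2.46 ± 0.78, in the same direction as that of Selenbp1 but not called (edgeR, adjusted p = 0.542). With the counts of both genes summed, a choice made after seeing the data, the response was -1.99 in controls and 1.08 in DT mice. The summed difference was 3.07 ± 0.46 (edgeR, adjusted p = 0.0137), with the pair counted as 1 gene.

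Across genes, the responses of the 2 kinds of mice went together. Refeeding raised 1537 genes (10.9%) and lowered 1735 (12.3%) in controls, against 1521 (10.8%) and 1905 (13.5%) in DT mice. Called in both with the same direction were 2049 genes, which is 62.6% of the control calls and 59.8% of the DT calls, and 4 genes were called in opposite directions. Another 1219 genes were called in controls alone and 1373 in DT mice alone. Being called in 1 arm is not a difference between arms: of the 1219, 1115 had the same sign in DT mice and 0 were called in the difference, and of the 1373, 1249 had the same sign in controls and 0 were called. Pearson's r of the responses across the 14064 genes was 0.61 and Spearman's rho 0.66, as a description over genes from arms that share no mouse. On the mean of both responses, 5470 genes were called (38.9%), and the response was larger in DT mice for 2382 of them (43.5%), with a slope of DT on control response of 0.906. Of these 5470 genes, 495 had an unadjusted p under 0.05 for the difference (9.05%), against 509 of the 8594 others (5.92%). Without mice 13 and 20 the share was 49.5% of 6245 genes and the slope 1.02. For 3561 of the 5470 genes (65.1%) the 95% interval of the difference lay within 1 log2 unit of 0, so a change that large in the response was outside their intervals. Over all tested genes this held for 7257 (51.6%).

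**Figure D2:**
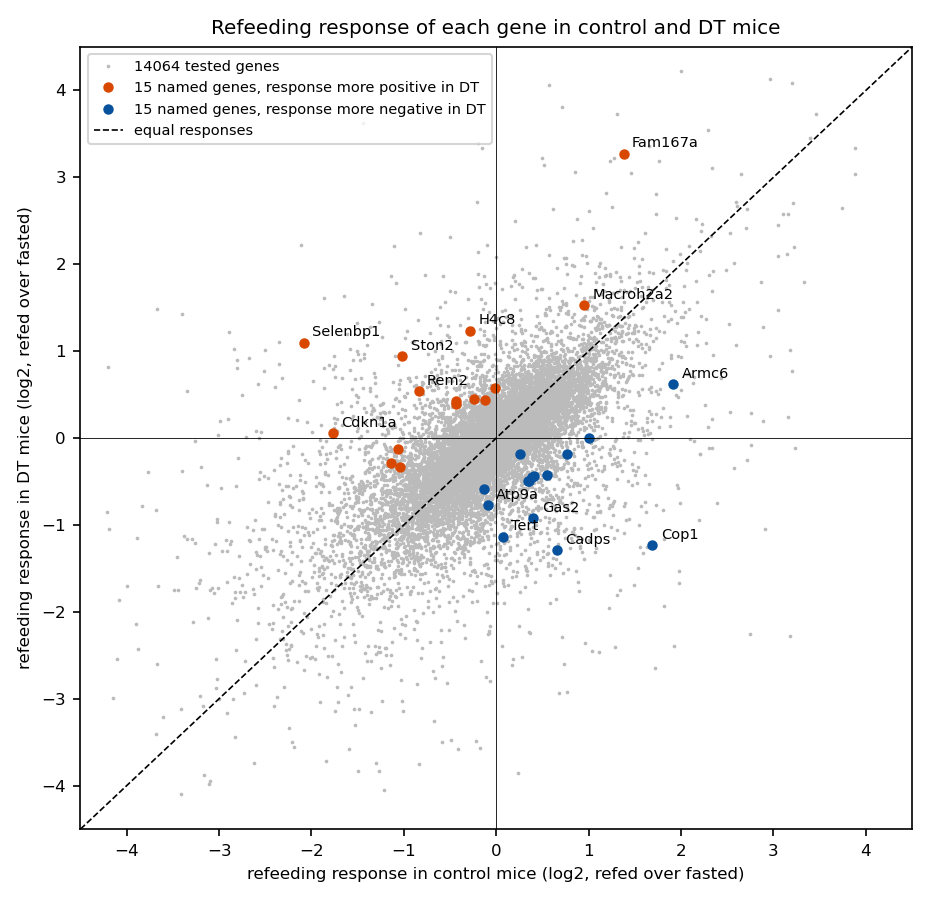
Each grey point is 1 of 14064 tested genes, with its refeeding response in control mice on the x axis and in DT mice on the y axis (log2, refed over fasted; 30 genes lie outside the axes); coloured points are the 15 named genes in each direction and the dashed line marks equal responses. Selenbp1 is at -2.08 in controls and 1.10 in DT mice.

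The 15 genes of each direction with the smallest p make up the named genes, 30 in all, most of them described below. Selenbp1 passed the threshold, and the other 29 had edgeR adjusted p-values between 0.445 and 0.51 with all mice. All 30 kept the sign of their difference in each of 32 other fits. These fits reuse the mice in which the 30 were picked by p, so the kept sign was largely set by that choice. DESeq2 called 8 of the 15 higher and 3 of the 15 lower ones. Refed control and refed DT mice did not overlap in 3 genes of each direction, against 0.988% of all tested genes. Fasted control and fasted DT mice did not overlap in 2 of each direction, Apbb1, Myadm and Eipr1 among them, against 1.88% of all tested genes. Fasted and refed mice did not overlap in 9 of the 30 among controls and in 7 among DT mice, against 21.5% and 10.1% of all tested genes. In 21 of the 30 the fitted responses had opposite signs, against 517 of all 1004 genes at an unadjusted p under 0.05. Among those 1004, the fitted response was negative in controls and positive in DT mice for 228, the reverse for 289, positive in both for 226 and negative in both for 261.

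Of the named genes with a higher response in DT mice, Rem2, Cdkn1a, Pkib, Hpcal1 and Vat1l fell in controls by the test. Rem2, an RGK-family GTPase that restrains voltage-gated calcium channels, had 29.1, 14.2, 25.4, 13.8 and 19.6 CPM in fasted control mice and 10.9, 11.6, 10.9, 8.91 and 14.8 CPM in refed ones. In DT mice its range was 10.9 to 18 CPM when fasted (median 14.5) and 11.7 to 29.3 CPM when refed (median 21.5). Rem2 had its lowest median in refed controls, and each pair of groups overlapped. Its response was -0.84 in controls (edgeR, adjusted p = 0.0113) and 0.54 in DT mice (adjusted p = 0.0669), a difference of 1.38 ± 0.31.

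Cdkn1a, the p21 inhibitor of cyclin-dependent kinases, had 37.1, 21.1, 53.4, 35.5 and 38.3 CPM in fasted control mice and 10.02, 18.6, 9.35, 6.93 and 9.65 CPM in refed ones, with no overlap. In DT mice it ran from 12.3 to 29.1 CPM when fasted (median 17.7) and from 11.7 to 35.3 CPM when refed (median 17.9), with the highest value in mouse 13. The control response was -1.77 (edgeR, adjusted p = 0.000339) and the DT response 0.05, a difference of 1.82 ± 0.41 with all mice and 1.62 without mice 13 and 20. Fasted DT mice were already low in Cdkn1a, with a median below the lowest fasted control mouse. Pkib, an inhibitor of protein kinase A, had the same shape: medians of 20.3 and 9.91 CPM in fasted and refed controls, and of 16.2 and 15.1 CPM in DT mice. Hpcal1, of the neuronal calcium sensor family, went from a median of 41.1 to 17.4 CPM in controls and from 29.2 to 21.5 CPM in DT mice. Refed mice did not overlap for Hpcal1, since the highest refed control mouse had 19.99 and the lowest refed DT mouse 20.1 CPM. Vat1l went from 30.9 to 15.4 CPM in controls and from 23.6 to 20.1 CPM in DT mice. None of the DT responses of these 5 genes was called.

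Id2, an inhibitory partner of helix-loop-helix transcription factors, moved in opposite directions. It had 13, 14.7, 14.5, 18.3 and 15.4 CPM in fasted controls and 9.30, 12.4, 11.5, 13.3 and 9.52 CPM in refed controls. Fasted DT mice had 10.5 to 17.6 CPM (median 12.9) and refed DT mice 13.2 to 20.6 CPM (median 18.6). The lowest refed DT value, in mouse 20, was just below the highest refed control value. Both responses of Id2 were called, at -0.44 and 0.43 (edgeR, adjusted p = 0.0418 and 0.0275), and their difference was 0.87 ± 0.21 with all mice. Jup, the junction protein plakoglobin, had 87.4, 72.2, 81.6, 67.7 and 91.1 CPM in fasted controls and 53.2, 71.7, 46.4, 67.8 and 55.8 CPM in refed controls. Fasted DT mice had 70.9 to 87.6 CPM, and the refed DT mice had 81.8, 107, 126, 111, 121 and 60.8 CPM, where the first and the last are mice 13 and 20. The difference for Jup was 0.84 ± 0.22 with all mice (edgeR, adjusted p = 0.495) and 1.07 ± 0.16 without mice 13 and 20 (adjusted p = 0.0116). Ston2, the endocytic adaptor stonin-2, had group medians of 2.99, 0.848, 2.12 and 3.87 CPM in fasted control, refed control, fasted DT and refed DT mice, a difference of 1.96 ± 0.48.

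Fam167a and Macroh2a2 rose on refeeding in both kinds of mice, and their fitted rise was larger in DT mice. Fam167a had medians of 2.23 and 6.83 CPM in controls and of 0.81 and 8.41 CPM in DT mice, so its fasted median was lower and its refed median higher in DT mice. Its responses were 1.38 and 3.27, a difference of 1.89 ± 0.43. Macroh2a2, which encodes a macroH2A histone variant, had 40.7 to 50.5 CPM in refed controls and 41.7, 57.3, 61.6, 65.9, 55.0 and 64.7 CPM in refed DT mice, with mouse 13 the lowest of these. Its difference was 0.58 ± 0.15 with all mice and 0.67 ± 0.13 without mice 13 and 20 (edgeR, adjusted p = 0.0395). H4c8, a histone H4 gene, had medians of 15.4 and 12.9 CPM in controls and of 9.50 and 21.1 CPM in DT mice, a difference of 1.52 ± 0.35. Since 38.5% of its 100-base windows occur in other histone H4 genes, its counts are uncertain. Apbb1, which binds the amyloid precursor protein, Myadm and the zinc finger gene Hivep2 differed by 0.60, 0.55 and 0.70. All 3 rose in DT mice by the test and were not called in controls.

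**Figure D3:**
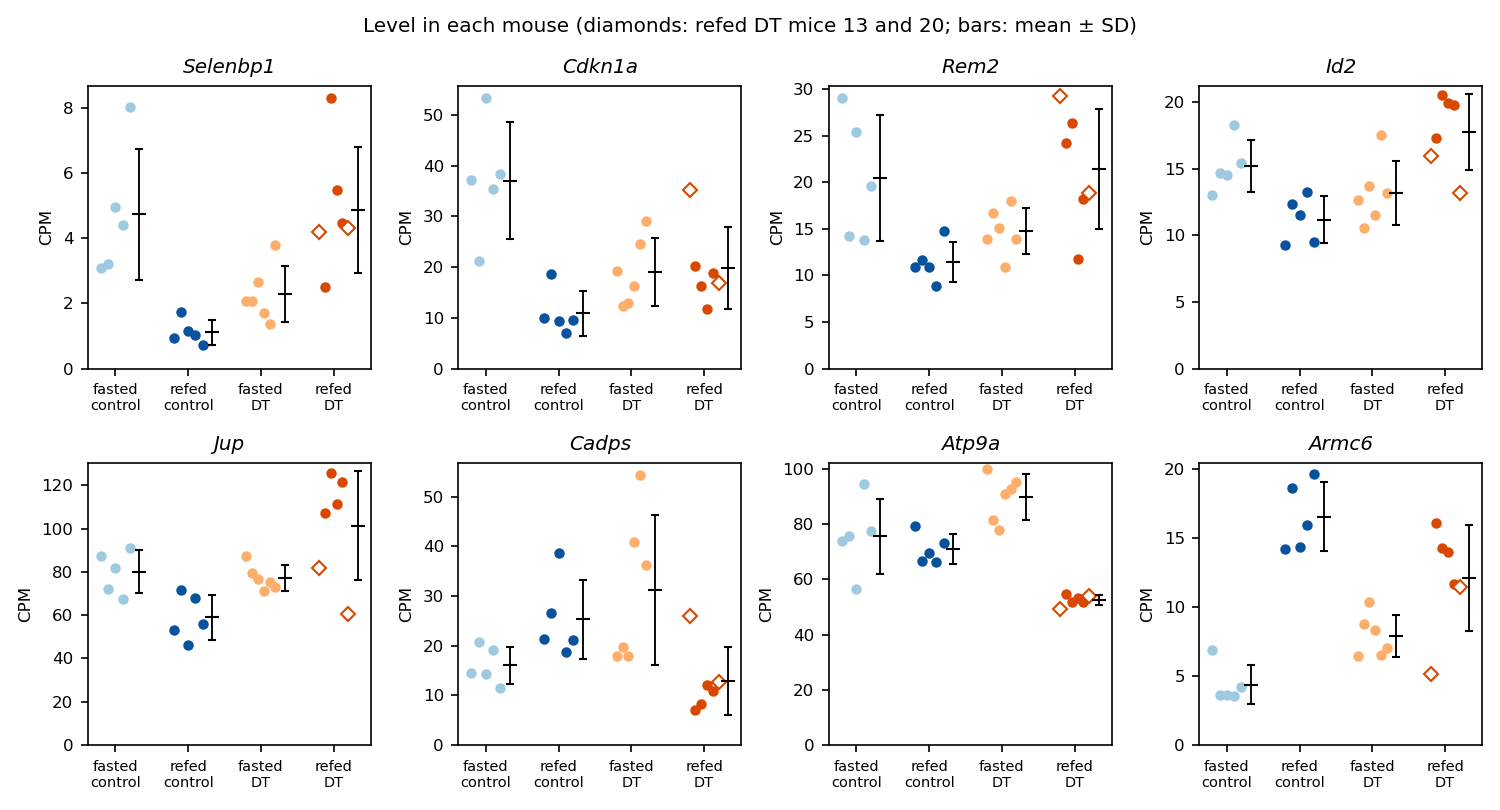
CPM of 8 named genes in each mouse (y axis, starting at 0) by group, with the mean ± SD beside the points; diamonds are refed DT mice 13 and 20. For Selenbp1 all refed controls lie at 1.73 CPM or below and all refed DT mice at 2.52 CPM or above.

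Of the named genes with a lower response in DT mice, Cadps, Atp9a, Gas2, Eipr1 and C2cd5 fell in DT mice by the test. Cadps, which primes dense-core granules for release, had 14.6, 20.7, 14.4, 19 and 11.5 CPM in fasted controls and 21.4, 26.5, 38.7, 18.7 and 21.2 CPM in refed controls. Fasted DT mice had 17.9, 19.8, 17.9, 41.0, 54.4 and 36.2 CPM, and refed DT mice 26.0, 7.11, 8.26, 12.2, 10.9 and 12.6 CPM. Fasted DT mice therefore had 3 values up to 19.8 and 3 from 36.2 upward, and mouse 13 alone among refed DT mice exceeded 12.6 CPM. The response of Cadps was 0.66 in controls (edgeR, adjusted p = 0.178) and -1.29 in DT mice (adjusted p = 0.00509). The difference was -1.95 ± 0.47 with all mice (adjusted p = 0.445) and -2.31 ± 0.43 without mice 13 and 20 (edgeR, adjusted p = 0.0395).

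Atp9a, of the P4-ATPase family of lipid flippases, had 73.8, 75.7, 56.5, 94.5 and 77.6 CPM in fasted controls and 79.5, 66.7, 69.7, 66.2 and 73.2 CPM in refed controls. It ran from 77.9 to 99.8 CPM in fasted DT mice and from 49.4 to 54.8 CPM in refed DT mice, below every other mouse of the study. Its response was -0.09 in controls and -0.77 in DT mice (edgeR, adjusted p = 8.44e-06), a difference of -0.68 ± 0.14. Gas2, a cytoskeletal protein linked to growth arrest, was at 6.10 to 6.99 CPM in refed DT mice and at 10.7 to 15.7 CPM in refed controls. Fasted DT mice spread from 4.59 to 18.4 CPM, more than the 8.74 to 11.7 CPM of fasted controls. The difference for Gas2 was -1.32 ± 0.32 with all mice, and it was called without fasted DT mouse 6, the lowest of that spread (-1.48, edgeR, adjusted p = 0.0153). Eipr1, which works with the EARP complex in dense-core granule traffic, had medians of 13 and 18 CPM in fasted and refed controls and of 18 and 13.6 CPM in DT mice, a difference of -0.83 ± 0.21. C2cd5, a C2-domain protein of vesicles, had 24.0 and 29.1 CPM in controls and 31.8 and 21.8 CPM in DT mice, a difference of -0.85 ± 0.22. The control response of these 5 genes was not called, nor was their difference with all mice.

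Armc6 rose in both kinds of mice. It had 6.85, 3.61, 3.64, 3.55 and 4.21 CPM in fasted controls and 14.2, 18.6, 14.3, 15.9 and 19.6 CPM in refed controls, with no overlap. Fasted DT mice were at 6.44 to 10.3 CPM and refed DT mice at 5.12, 16, 14.3, 14, 11.6 and 11.4 CPM, with mouse 13 lowest. Its responses were 1.92 and 0.62, a difference of -1.30 ± 0.32 with all mice and -1.05 without mice 13 and 20. Zbtb40, a zinc finger gene, rose in controls by 1.00 and had a DT response of 0.00. Cop1, an E3 ubiquitin ligase, had 1.93 to 10.9 CPM in refed controls and 1.69 to 11.5 CPM in fasted DT mice, against 1.33 to 2.15 CPM in fasted controls. Its difference of -2.92 ± 0.72 rests on a wide spread, and 31.9% of its 100-base windows also occur in other annotated genes. Pigq, of GPI-anchor synthesis, and Tert, the catalytic subunit of telomerase, fell in DT mice by 0.59 and 1.13, with control responses of -0.14 and 0.07. Refed DT mice had 34.9 to 48.4 CPM of Pigq, below the 49.7 to 57.2 CPM of refed controls. Also in this direction were Nipsnap3b (-0.84), the tyrosine kinase gene Fer (-0.85), Eepd1 (-0.97) and the splicing repressor gene Ptbp1 (-0.45). Genes on the opposite strand overlap 20.7% of the exon bases of Ptbp1 and 15.8% of those of Pigq, and with no strand setting stated their reads cannot be told apart.

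**Figure D4:**
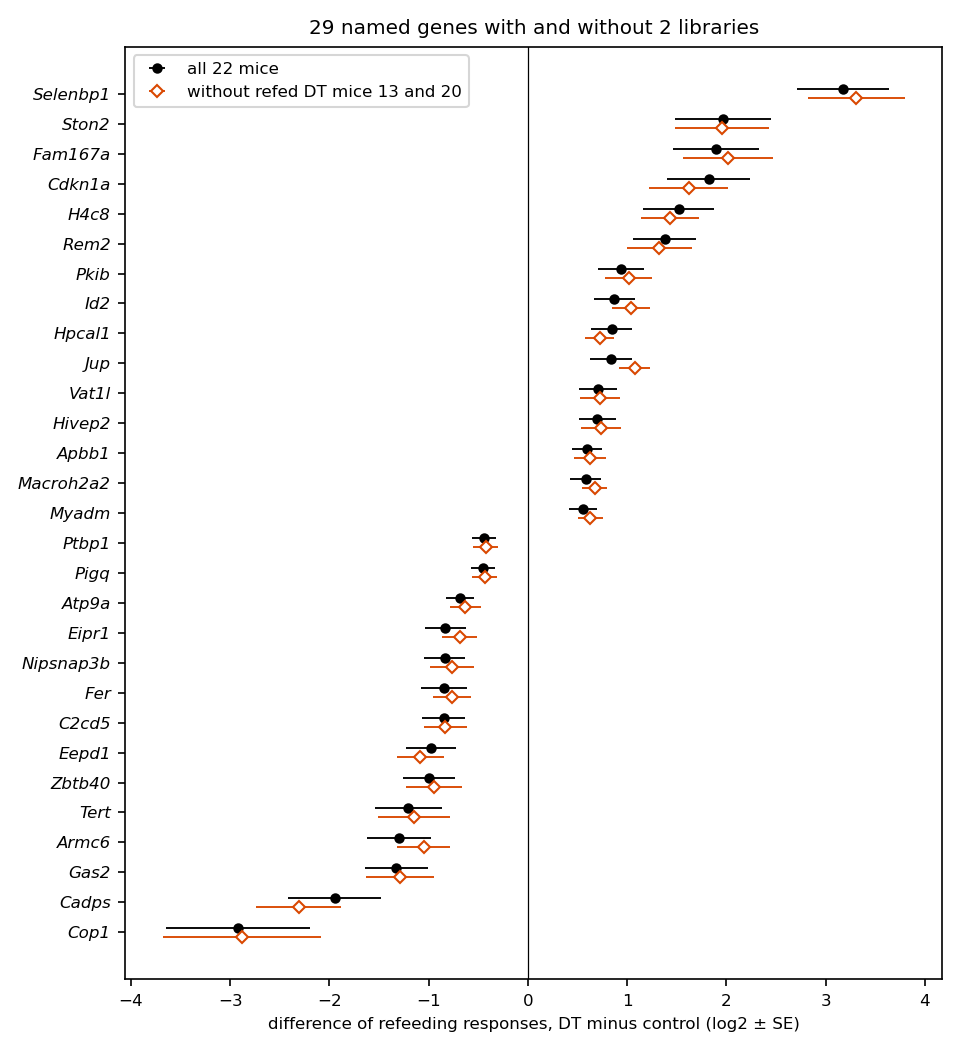
Difference of refeeding responses, DT minus control (x axis, log2 ± SE), of 29 of the 30 named genes with all 22 mice (filled) and without refed DT mice 13 and 20 (open). All 29, picked by p in all 22 mice, keep their side of 0, and the values for Jup move from 0.84 to 1.07 and for Cadps from -1.95 to -2.31.

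Leaving out mice 13 and 20 brought 14 calls, all with the same sign in all mice and 13 of them at an unadjusted p under 0.05 there. Because the 2 mice were picked for standing apart, adjusted p-values without them can be too small, and these calls are descriptive. Beside Selenbp1, Jup, Id2, Macroh2a2 and Cadps the 14 were genes outside the naming rule, chosen here after their values were seen. Rara, the retinoic acid receptor α gene, had 15.6 to 19.7 CPM in fasted controls and 7.96 to 9.04 CPM in refed controls. Refed DT mice had 26.4, 12.2, 14, 15, 11.3 and 5.99 CPM, with mouse 13 the highest and mouse 20 the lowest, and 4 mice between the refed and the fasted controls. Its difference was 0.80 ± 0.31 with all mice (edgeR, adjusted p = 0.597) and 0.74 ± 0.14 without them (adjusted p = 0.0496). Bmpr1b, a receptor for bone morphogenetic proteins, had 0.648 to 1.86 CPM in refed controls and 0.366, 3.85, 7.43, 2.66, 7.38 and 0.761 CPM in refed DT mice, where both low values are mice 13 and 20. Dmpk, a protein kinase gene, had 55.4 and 40.9 CPM in mice 13 and 20 and 15.2 to 16.9 CPM in the other 4 refed DT mice. Its difference went from -0.72 (edgeR, adjusted p = 0.776) to -1.42 (adjusted p = 0.0395). Anpep, an aminopeptidase gene, Plscr3, of the phospholipid scramblases, and Mapk13, a p38 kinase gene, differed by 1.02, 1.02 and 1.46 with all mice and by 1.23, 1.11 and 1.80 without mice 13 and 20. Rsph4a, which encodes a part of the ciliary radial spoke, went from 3.90 to 4.999 CPM in fasted controls to 0.324 to 1.27 CPM in refed controls, and differed by 2.16 and 2.61. Duxbl1 and Hykk were the other calls and had low counts, with 3 of 5 refed control mice at 0 for Duxbl1 and 2 of 6 refed DT mice at 0 for Hykk. Of the 20 genes called by DESeq2, 6 were also called by edgeR without mice 13 and 20, and 18 of the 19 that edgeR tested had an unadjusted edgeR p under 0.05.

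Genes were next grouped by function. For each list the members at an unadjusted p under 0.05 are counted in each direction and read against 3.29% higher and 3.85% lower over all genes, and its median difference against -0.02. Over all tested genes 48.0% had a positive difference. In control and DT mice 10.9% and 10.8% of them rose, and 12.3% and 13.5% fell, by the test. No list member other than Selenbp1 was called. Shares far from 48.0% were found in several lists, not only in those where the share is given below. They were 17.6% for glycolysis genes, 18.8% for proliferation genes and 22.9% for splicing factors. Fatty acid synthesis genes and immaturity and disallowed genes had 80% each, and mitochondrially encoded genes 100%. The lists were not tested as sets.

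Lipid genes had positive median differences, with no member called. Of the 26 cholesterol synthesis genes, 23 had a positive difference (88.5%, against 48.0% over all genes), 3 were higher and 1 lower at an unadjusted p under 0.05, and the median difference was 0.33. The mean log2 CPM of the cholesterol synthesis genes was 4.07 to 4.79 in fasted controls, 4.43 to 4.88 in refed controls and 4.14 to 4.67 in fasted DT mice. Refed DT mice stood at 5.38, 5.22, 4.96 and 4.92, all above every refed control mouse, except for mice 13 at 4.16 and 20 at 4.54. Without mice 13 and 20 the median difference was 0.57, with 13 members higher and 0 lower at an unadjusted p under 0.05, against 7.03% higher and 5.45% lower over all genes. By the test, 12 members rose in DT mice and 4 in controls, against 10.8% and 10.9% of all genes, and 0 were called in the difference. Fdft1, squalene synthase, went from a median of 41.4 to 46.5 CPM in controls and from 47.2 to 71.4 CPM in DT mice, a difference of 0.74 ± 0.30 (0.98 without mice 13 and 20). Srebf2, the transcription factor of the pathway, differed by 0.43 ± 0.19. Tm7sf2, named after its value was seen, was the member lower at that p, with -0.62. Of 20 fatty acid synthesis genes, 1 was higher and 0 lower (5%, against 7.14% over all genes), with a median of 0.23. Mid1ip1, an activator of acetyl-CoA carboxylase, had 26.2 to 30.3 CPM in refed controls and 32 to 50.004 CPM in refed DT mice without overlap, a difference of 0.54 ± 0.18. Acly, ATP citrate lyase, differed the other way by -0.59 ± 0.29, and the desaturase gene Fads2 by 0.86 ± 0.43.

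Of 25 PPAR and fatty acid oxidation genes, 9 fell in controls and 9 in DT mice by the test. In the difference 2 were higher and 0 lower at an unadjusted p under 0.05, a share of 8% against 7.14% over all genes, and the median difference was 0.17. Without mice 13 and 20, 5 were higher and 0 lower, against 7.03% higher and 5.45% lower over all genes, and the median was 0.11. Cpt1a, the gate of fatty acid entry into mitochondria, had 93.0 to 128 CPM in fasted controls and 27.6 to 45.1 CPM in refed controls. It had 73.3 to 101 CPM in fasted DT mice and 32.5 to 68.8 CPM in refed DT mice. Neither kind of mouse overlapped between feeding states for Cpt1a, and refed groups overlapped each other. Its responses were -1.49 and -0.89, a difference of 0.60 ± 0.23 (edgeR, adjusted p = 0.599). Cpt2, the partner enzyme on the inner membrane, fell in controls by 0.56, had a DT response of -0.14, and differed by 0.42 ± 0.13 (edgeR, adjusted p = 0.537).

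Glucocorticoid-induced genes held 4 members higher and 0 lower of 14 at an unadjusted p under 0.05, with a median difference of 0.33. These were Cdkn1a, Errfi1, Mt1 and, outside the naming rule, Mt2. The metallothionein Mt1 went from a median of 2258 to 507 CPM in controls and from 1207 to 662 CPM in DT mice, where mouse 13 had 4092 CPM. Its difference of 1.82 ± 0.73 was 1.04 without mice 13 and 20. Outside the naming rule, Tsc22d3 and Fkbp5, which respond to the receptor in many cells, had differences of 0.00 and 0.49. Their 95% intervals ran from -0.37 to 0.37 and from -1.55 to 2.54, so that of Fkbp5 leaves its response undecided. Per1 and Tat, also outside the rule, differed by 0.80 (interval -0.14 to 1.74) and 0.50 (-0.19 to 1.19). Of the 14 members, 10 had a positive difference. Beside Tsc22d3, those below 0 were Dusp1 (-0.47), Pdk4 (-1.11) and Nr3c1 (-0.21), named after their values were seen. The part of the receptor in these values was not tested. Of 13 ERK feedback genes, 2 were higher and 0 lower, with a median of 0.50. Leaving out each mouse in turn gave medians from 0.21, without fasted control mouse 3, to 0.58. Errfi1, a brake on the EGF receptor, had 28.7 to 47.8 CPM in refed controls and 37.7 to 103 CPM in refed DT mice. It rose in DT mice by 0.93 and had a control response of -0.23, a difference of 1.16 ± 0.41. Spry2 and Dusp4, both ERK brakes, differed by 1.36 ± 0.63 and 0.97 ± 0.52.

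Of 26 ATF4 and amino acid response genes, which serve the integrated stress response, 11 fell in controls and 4 in DT mice by the test, against 12.3% and 13.5% of all genes. In the difference, 22 were positive (84.6%, against 48.0% over all genes), 3 were higher and 1 lower at an unadjusted p under 0.05, and the median was 0.38, or 0.20 without mice 13 and 20. The mean log2 CPM of the list was 3.62 to 4.28 in fasted and 3.16 to 3.56 in refed controls. It was 3.33 to 4.61 in fasted and 3.26 to 3.90 in refed DT mice, highest in mouse 13. Without mice 13 and 20 the refed DT range ended at 3.44, so refed groups overlapped in both cases. Slc3a2, the heavy chain of amino acid transporters, had medians of 146 and 146 CPM in controls and of 139 and 191 CPM in DT mice, a difference of 0.45 ± 0.16. Nupr1, a stress-induced chromatin protein, went from 92.7 to 22.7 CPM in controls and from 38.1 to 26.8 CPM in DT mice, with mouse 13 highest at 91.2 CPM. Its difference was 1.59 ± 0.69. Cebpb was the member with a lower response (-5.005 ± 1.60), at medians of 0.25, 0.194, 1.73 and 0.417 CPM in fasted control, refed control, fasted DT and refed DT mice, with up to 7.30 CPM in a fasted DT mouse and up to 6.68 CPM in a refed control. The fitted control response was 2.75 although the control median did not rise, so the size of the difference is uncertain. By limma voom it was -2.35 (adjusted p = 0.869). Of 21 amino acid transporters, 2 were higher and 0 lower, with a median of 0.15.

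Of 33 ER chaperones and unfolded protein response genes, which fold proteins in the endoplasmic reticulum, 18 rose in controls and 14 in DT mice by the test, against 10.9% and 10.8% of all genes. A positive difference was found in 5 of them (15.2%, against 48.0% over all genes), and the median was -0.25. At an unadjusted p under 0.05, 0 were higher and 1 lower, a share of 3.03% against 7.14% over all genes. Without mice 13 and 20, 0 were higher and 4 lower, against 7.03% higher and 5.45% lower over all genes. The mean log2 CPM of ER chaperones and unfolded protein response genes was 7.77 to 7.99 in refed controls. It was 7.42, 7.72, 7.54, 7.72, 7.70 and 7.98 in refed DT mice, so that all but mouse 20 lay below every refed control. Fasted controls had 7.16 to 7.58 and fasted DT mice 7.16 to 7.56. Dnajb9, a cochaperone of BiP, had medians of 99.3 and 256 CPM in controls and of 125 and 214 CPM in DT mice, a difference of -0.56 ± 0.25 (edgeR, adjusted p = 0.679). Ssr1, of the translocon, and Hsp90b1, the chaperone GRP94, differed by -0.43 ± 0.22 and -0.35 ± 0.18. The 23 cytosolic and mitochondrial chaperones had median responses of 1.24 in controls and 1.13 in DT mice, and 0 were higher and 2 lower in the difference. These 2 were Hspd1 (-0.36) and Chordc1 (-0.62). Their median difference was -0.09 with all mice and 0.11 without mice 13 and 20.

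Genes of RNA and protein synthesis were counted by function. Of 35 splicing factors, 0 were higher and 7 lower at an unadjusted p under 0.05, a share of 20%, with a median difference of -0.20. Rbm5, an RNA-binding splicing regulator, had 48.2 to 62.8 CPM in fasted controls and 65.8 to 89.0 CPM in refed controls without overlap. Fasted DT mice had 74.5 to 107 CPM and refed DT mice 75.7 to 91.3 CPM, so DT mice in both states lay above every fasted control. The response of Rbm5 was 0.47 in controls (edgeR, adjusted p = 0.00278) and -0.04 in DT mice, a difference of -0.52 ± 0.15. Luc7l, a U1 snRNP partner, had group medians of 48.2, 65.2, 85.9 and 72.2 CPM in fasted control, refed control, fasted DT and refed DT mice and differed by -0.63 ± 0.18. Srsf1, Srsf10, Hnrnpa2b1 and Snrnp70, outside the naming rule, were the other lower members, with -0.56, -0.39, -0.35 and -0.57. Rbm39, a U2AF-related splicing factor, fell in DT mice by 0.53 with a control response of -0.10, and differed by -0.43 ± 0.15. The mean log2 CPM of the splicing factors was 5.39 to 5.83 in fasted controls, 5.78 to 6.12 in refed controls, 5.79 to 6.19 in fasted DT mice and 5.96 to 6.08 in refed DT mice. Its median over mice was 5.72 in fasted controls and 5.99 in fasted DT mice, against 5.89 and 6.003 in refed ones, so the medians lay further apart before feeding than after it. Of 77 ribosomal protein genes, 68 had a positive difference (88.3%, against 48.0% over all genes), with a median of 0.16. Their mean log2 CPM was 5.18 to 5.37 in fasted and 5.21 to 5.59 in refed controls. In DT mice it was 5.13 to 5.50 when fasted and 5.45 to 5.92 when refed, highest in mouse 13. Refed groups overlapped, also without mice 13 and 20, where the refed DT range ended at 5.68. At an unadjusted p under 0.05, 5 were higher and 0 lower, a share of 6.49% against 7.14% over all genes. By the test 34 rose in DT mice and 12 in controls, against 10.8% and 10.9% of all genes, and 0 were called in the difference. Rps27 had a difference of 0.57 ± 0.21 and Rpl27a of 0.53 ± 0.19. Ribosome biogenesis genes rose in 25 of 35 cases in controls and in 24 in DT mice, and 0 were higher and 3 lower, with a median difference of -0.03. Among 32 translation factors 1 was higher (Eif4ebp1, 1.13) and 1 lower (Eif4g1, -0.45), with a median of 0.10, and among 19 aminoacyl-tRNA synthetases and 31 proteasome subunits 0 were higher and 1 each lower (Vars, -0.50, and Psmd1, -0.35), with medians of -0.12 and -0.08.

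**Figure D5:**
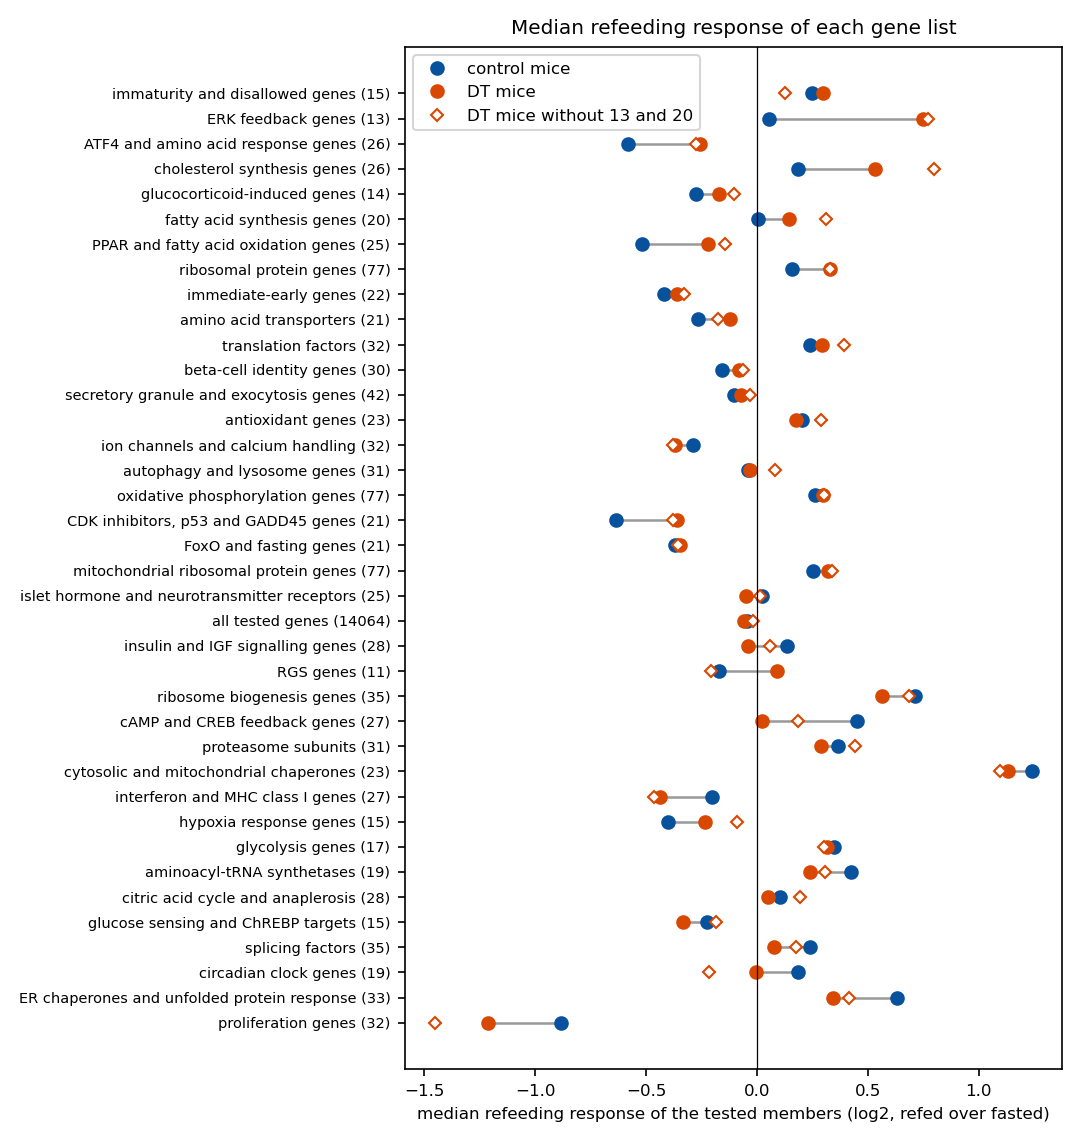
Median refeeding response (x axis, log2) of the tested members of each list with 10 or more, acinar markers left out, in control mice (blue), DT mice (orange) and DT mice without 13 and 20 (open), ordered by the median difference; numbers of members are in parentheses. Cholesterol synthesis genes have medians of 0.19 in controls and 0.53 in DT mice, and ER chaperones 0.63 and 0.35.

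In the machinery of insulin secretion the counts were above and below the background without a common direction. Of 42 secretory granule and exocytosis genes, 4 were higher and 2 lower at an unadjusted p under 0.05 (14.3% against 7.14%), with a median of 0.04. Cadps and the synaptic vesicle protein gene Sv2a were the lower ones. Sv2a had medians of 113 and 104 CPM in controls and of 115 and 67.8 CPM in DT mice, with -0.47 ± 0.16. Rab3b, a small GTPase of granules, went from 168 to 87.3 CPM in controls and from 129 to 113 CPM in DT mice, a difference of 0.68 ± 0.27. The other higher members, named after their values were seen, were the Sv2a relatives Sv2b (1.45 ± 0.69) and Sv2c (1.37 ± 0.66) and the granule peptide gene Vgf (1.34 ± 0.58), so members of the Sv2 family stood on both sides. Of 32 ion channel and calcium handling genes, 1 was higher and 0 lower, namely Stim1, the calcium sensor of the endoplasmic reticulum (0.51 ± 0.16), with a median of 0.02. Of 15 glucose sensing and ChREBP targets and of 30 β-cell identity genes, 0 were higher and 0 lower in each, with medians of -0.20 and 0.06. Without mice 13 and 20, 1 was higher and 2 lower among the glucose sensing genes, and 4 higher and 4 lower among the β-cell identity genes. Over all genes, 7.03% were higher and 5.45% lower in that fit. Slc2a2, the glucose transporter, went from a median of 579 to 378 CPM in controls and from 688 to 251 CPM in DT mice, a difference of -0.63 with a 95% interval from -1.30 to 0.04. Ins1 differed by 0.51 (interval -0.20 to 1.21) with all mice and by 0.14 without mice 13 and 20, and Ins2 by 0.42 (-0.20 to 1.04) and 0.13. Of 15 immaturity and disallowed genes 1 was higher, Neurog3 (2.13 ± 0.87), with a median over the list of 1.05 with all mice and 0.52 without mice 13 and 20. The median SE of its members was also 1.05, and their median responses were 0.25 in controls and 0.30 in DT mice. Levels were low and overlapped, with a mean log2 CPM of -0.64 to 0.25 in refed controls. Refed DT mice had -0.78 to 1.39, highest in mouse 20.

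Among acute signals, 0 of 22 immediate-early genes passed an unadjusted p of 0.05 in either direction. Their median was 0.16 with all mice, 0.0078 without refed DT mouse 16 and -0.02 without mice 13 and 20. Nr4a1, an orphan nuclear receptor gene induced by cyclic AMP and calcium, had medians of 9.71 and 33.2 CPM in controls and of 6.34 and 64.5 CPM in DT mice. The difference for Nr4a1 was 1.71, and its 95% interval from -0.10 to 3.51 holds both equal responses and a much larger one in DT mice. Of 27 cAMP and CREB feedback genes 1 was higher (Sik2, 0.59) and 2 lower, the phosphodiesterase genes Pde7a (-1.53) and Pde8a (-1.37), with a median of -0.07. Of 11 RGS genes 1 was higher, Rgs12 (1.73 ± 0.77), with a median of -0.02. Among 25 islet hormone and neurotransmitter receptors 1 was higher (Chrm4, 1.64) and 1 lower, with a median of -0.01. The latter was Gabbr2, a subunit of the GABA-B receptor, with 4.62 to 7.94 CPM in fasted and 16.4 to 24.9 CPM in refed controls. Gabbr2 had 3.57 to 8.98 CPM in fasted and 5.78 to 12.4 CPM in refed DT mice, so that refed groups did not overlap. It rose in controls by 1.65 and had a DT response of 0.57, a difference of -1.08 ± 0.34 (edgeR, adjusted p = 0.537). Among 28 insulin and IGF signalling genes 1 was higher (Pik3cb, 1.04) and 2 lower (Akt1, -1.33, and Pik3ca, -1.18), with a median of -0.02.

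Glycolysis, citric acid cycle and nuclear oxidative phosphorylation genes had median differences between -0.16 and 0.01, and other lists follow. Glycolysis genes held 0 higher and 1 lower of 17 with a median of -0.12, the lower one being the pyruvate kinase gene Pkm (-0.37 ± 0.12). Citric acid cycle genes held 0 higher and 2 lower of 28 with a median of -0.16, namely Sucla2 (-0.30) and Ogdh (-0.37). Of 77 nuclear oxidative phosphorylation genes 0 were higher and 2 lower, and of 77 mitochondrial ribosomal protein genes 1 was higher and 1 lower, with medians of 0.01 and -0.01. The 8 mitochondrially encoded genes had a median difference of 0.41 with all mice and -0.36 without mice 13 and 20, whose mitochondrial shares were the highest, and 0 passed in either fit. Of 15 hypoxia response genes 0 passed in either direction, with a median of -0.11. Antioxidant genes (23) had 1 higher, Nfe2l2 at 0.53, and a median of 0.02. Autophagy and lysosome genes (31) had 2 higher and 1 lower, with a median of 0.02. FoxO and fasting genes (21) had 1 higher, Bcl2l11 at 0.70, and a median of -0.01. Of 21 CDK inhibitors, p53 and GADD45 genes 1 was higher, Cdkn1a, and the median was 0.00. Of 32 proliferation genes 0 were higher and 1 lower, Mki67 at -1.68, with a median of -0.30. Without mice 13 and 20 the proliferation genes had 0 higher and 6 lower, against 5.45% lower over all genes, with a median of -0.46. Circadian clock genes (19) had 0 in either direction and a median of -0.25, or 0.03 without fasted DT mouse 10, and interferon and MHC class I genes (27) had 0 higher and 2 lower, Mx2 (-2.45) and Ifit1 (-1.36), with a median of -0.09.

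Transcripts of other cell types were measured beside these results, and their part in them was not tested. Gcg, the glucagon gene, ran from 0.0529 to 0.833 CPM in fasted DT mice and from 0 to 26.0 CPM in refed DT mice, the latter in mouse 13, against 1.3 to 241 CPM in fasted and 56.0 to 172 CPM in refed controls. Its difference of 3.49 was -0.14 without mice 13 and 20. Sst was at or under 4.71 CPM in fasted and 0.494 CPM in refed DT mice, with 2 of 6 and 3 of 6 mice at 0. A count of 3 reads in a library corresponds to at most 0.274 CPM, and since reads carry no molecular identifiers such limits cover counting error only. Summed α-cell markers, of which 5 of 9 were tested, ran from 418 to 861, from 434 to 790, from 404 to 721 and from 462 to 817 CPM in fasted control, refed control, fasted DT and refed DT mice, most of it Ttr. δ-cell markers (4 of 6 tested) summed to 31.0 to 110 and 68.6 to 111 CPM in fasted and refed controls and to 19.99 to 80.2 and 30.3 to 50.2 CPM in DT mice. γ-cell markers (3 of 4) summed to 21.2 to 128 and 61.5 to 276 CPM in controls and to 10.6 to 30.02 and 31.4 to 97.3 CPM in DT mice. Immune-cell markers (8 of 10) reached 486 CPM in mouse 20 and 383 CPM in a fasted DT mouse, with group medians between 22.7 and 35.1 CPM. Duct-cell markers (5 of 6) had 2 higher and 0 lower, among them Krt7 (0.47 ± 0.16), with group medians of the sum between 352 and 443 CPM. At an unadjusted p under 0.05, δ-cell markers had 1 higher, Hhex at 2.47, and 1 lower, Sst at -3.33 and at 0.40 without fasted DT mouse 8, and α-cell, γ-cell, acinar, endothelial, immune and stellate markers had 0 in either direction. Endothelial markers (4 of 7) summed to at most 11.03 CPM and stellate and fibroblast markers (2 of 7) to at most 17.6 CPM. With an acinar score or the mitochondrial share added to the model, the difference for Selenbp1 was 3.18 and 3.20, called in both (edgeR, adjusted p = 0.019 and 0.0169).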

How the data were processed

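RNA of sorted β-cells from 22 mice was sequenced, 1 library per mouse. The deposited table holds raw read counts per gene symbol for the 4 groups. The submitters' processing notes name STAR 2.7.2b, HTSeq 0.9.1, DESeq2 1.28.1 and GRCm38.p6, and the counting settings for strand and for reads that match several genes are not given in the sources used here. Reads carry no molecular identifiers, so the limits given cover counting error only. Of 52327 symbols, 24242 were at 0 in every library and 14064 passed edgeR's filter for expression by group. The remaining 14021 held at most 0.176% of a library's counts. No 2 libraries were identical.

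Each group had a mean in an edgeR 4.0.16 quasi-likelihood model (R 4.3.3, robust, TMM), and the contrast was (refed DT minus fasted DT) minus (refed control minus fasted control). Each SE is the log2 value divided by the square root of F. Every adjusted p without another tool's name is edgeR's, adjusted by Benjamini and Hochberg over all tested genes. P-values weigh each contrast against the spread between mice, estimated over all 4 groups and moderated across genes. Named genes are those called, the 15 in each direction with the smallest p among genes averaging a log2 CPM of 1 or more and with no predicted-model name, up to 3 members per list with the smallest p, the hormone genes and Selenbp2. Results of a few genes are not reported here. Mean log2 CPM of lists used a prior count of 2. The 39 function lists, the 8 marker lists and the comparison itself were chosen with earlier results of these data known. Alternatives were DESeq2 1.42.0, limma 3.58.1 voom with and without sample weights, other scalings and filters, covariates, and fits without mice. The code was tested on simulated data. Gene positions are from GENCODE M21 and promoters from RefSeq, both on GRCm38.p6; 27 of 30 named genes matched a promoter entry.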

Additional observations from a re-analysis of the deposited data

Results flagged for a closer look

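Selenbp1 was the gene whose refeeding response differed between DT and control mice by the test of the difference itself, by 3.18 on the log2 scale. Single mice that stood far from their group were sought among 36 named genes, hormones and library measures, and 17 of 156 groups had one. Chance alone would flag about 1 in 20 independent groups. These groups are not independent, since Ins1, Ins2 and the insulin share measure much the same thing, so the count was not tested against chance. Mouse 13 among refed DT mice stood apart in 6 of them: it was highest in insulin share (69.4%), Ins1 (310000 CPM), Ins2 (917000 CPM), Gcg (26.0 CPM) and Hpcal1 (39.8 CPM), and lowest in Armc6 (5.12 CPM). CPM values of mouse 13 are divided by its TMM factor of 0.566. Mouse 20 of the same group had the lowest acinar marker level (2.27, mean log2 CPM), as refed control mouse 12 had in its group (6.47). Fasted control mouse 1 was highest in Pkib (31.3 CPM) and Armc6 (6.85 CPM), and fasted DT mouse 11 in Hpcal1 (36.9 CPM) and Macroh2a2 (23.3 CPM). Refed control mouse 18 was lowest in Nipsnap3b (17.5 CPM). Sst was highest in fasted DT mouse 8 (4.71 CPM) and refed DT mouse 14 (0.494 CPM). Selenbp2 was highest in fasted control mouse 5 and refed DT mouse 15, each at 1.37 CPM.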

How the results depend on the processing

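The count of genes called in the difference depended on 2 mice and on the tool. Higher responses in DT mice were called for 11 genes without refed DT mice 13 and 20, 0 by limma voom and 13 by DESeq2, against 1 with edgeR on all mice. Lower responses were called for 3 genes without those mice, 7 by DESeq2 and 1 without fasted DT mouse 6. At an unadjusted p under 0.05 there were 1954 genes with no expression filter, 1784 without mice 13 and 20 and 1712 by voom with sample weights. Leaving out each mouse in turn gave 1 gene higher in every case, 0 to 1 lower, 821 to 1426 at an unadjusted p under 0.05, 5070 to 6286 called in the mean response, 40.2% to 47.2% of these larger in DT mice, and slopes of 0.855 to 0.984. Without mice 13 and 20 the median difference turned from -0.11 to 0.0700 for hypoxia response genes, from 0.16 to -0.02 for immediate-early genes, from -0.08 to 0.05 for proteasome subunits, from 0.41 to -0.36 for mitochondrially encoded genes and from 1.24 to -2.21 for immune-cell markers. It went from -0.09 to -0.31 for interferon and MHC class I genes, from 0.65 to 0.0288 for α-cell markers and from -2.81 to -7.74 for stellate and fibroblast markers. The cause of these shifts was not tested. Of 47 lists, 25 kept the sign of their median in all 25 alternatives run for lists, among them cholesterol synthesis, ER chaperones, PPAR and fatty acid oxidation genes and splicing factors. Another scaling moved the median over all genes from -0.02 to at most 0.03. Limits are the 5 or 6 mice per group, a median SE of the difference of 0.33 on the log2 scale, and low counts in genes near 1 CPM. No paired analysis was possible because each mouse number occurs once and so no number is shared between groups.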

Other observations

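Beyond the genes described, DESeq2 called some of low abundance, which are given here after their values were seen. Serpina3n, a serine protease inhibitor gene of the acute phase, had 0.757 to 3.96 CPM in fasted controls and 0 to 0.417 CPM in refed controls. In DT mice it had 0.371 to 5.26 CPM when fasted and 0, 3.60, 3.47, 5.404, 10.8 and 1.81 CPM when refed, with mouse 13 at 0. Its difference was 4.83 ± 1.27 by edgeR (adjusted p = 0.501) and 4.91 by DESeq2 (adjusted p = 0.047). The histone gene H4c18 had a difference of 2.41 ± 0.57 by edgeR (adjusted p = 0.445) and 2.45 by DESeq2 (adjusted p = 0.0495), with mouse 13 highest at 2.92 CPM. Afm, which encodes afamin, had 0.842 to 2.81 CPM in fasted DT mice and 0 to 0.444 CPM in refed DT mice, and a difference of -2.78 ± 0.73 (edgeR, adjusted p = 0.501). The immunoglobulin genes Ighg2b and Iglv1 were at 0 in every fasted control mouse. Ighg2b had 17.9 and 6.78 CPM in 2 fasted DT mice and 19.2 CPM in mouse 13, with at most 3.33 CPM in each of the other mice, and 13.3 CPM of Iglv1 was found in a refed control mouse.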
